A study of Mus musculus with 4 samples.

Results

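Mature dendritic cells of EO771 mammary tumors were chosen cell by cell from their raw counts, and 1309 were found among the 28429 CD45+ cells that the authors kept, 4.60% of them. A cell was a member if it held at least 2 unique molecular identifiers (UMIs, each 1 captured transcript) of Fscn1 and at least 1 of Ccr7, no UMI of the T-cell genes Cd3d, Cd3e and Cd3g or the B-cell gene Cd79a, under 300 UMIs of S100a8 and S100a9 per 10000 and under 20 UMIs of C1qa, C1qb and C1qc per 10000. EO771 is a mouse mammary carcinoma line, and the tumors were orthotopic, in the mammary gland of female mice on the C57BL/6 background, collected at 1.5 cm3. Of the hosts, 2 were Csf1r fl/fl mice without Cre and 2 were Lyve1Cre Csf1r fl/fl mice, which lose the macrophage growth factor receptor gene Csf1r in cells that express Cre from the Lyve1 locus, so that both genotypes carry the floxed Csf1r allele and differ in Cre. Lyve1 is also expressed by lymphatic endothelial cells, and the age of the tumor-bearing mice was not given in the sources used here. Each of 2 Chromium runs held 1 tumor of each genotype, told apart by a hashtag antibody.

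The hashtag of a cell set its tumor, and the barcodes are shown because every value by tumor rests on them:
A0301: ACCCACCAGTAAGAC
A0302: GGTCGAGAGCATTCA
A0301 marked the Csf1r fl/fl tumor in run 1 and the Lyve1Cre Csf1r fl/fl tumor in run 2, and A0302 marked the other tumor of each run, so neither antibody stood for a genotype. In 3 of the 1309 members the higher hashtag was under 3 times the other, and no barcode sequence occurred among members of both runs. Values for the 4 tumors are given below in a fixed order: Csf1r fl/fl run 1, Csf1r fl/fl run 2, Lyve1Cre Csf1r fl/fl run 1 and Lyve1Cre Csf1r fl/fl run 2. The tumors held 297, 349, 461 and 202 members, with a median of 5180, 4817, 4570 and 4650 UMIs per cell and a sum of 1833178, 2012663, 2553728 and 1234094 UMIs. The authors had removed clusters that came almost only from the Lyve1Cre Csf1r fl/fl tumor of run 2, and members were taken from the cells that remained. Csf1r itself was read at 0.30, 0.15, 0.09 and 0.06 UMIs per 10000 in the members, and since UMIs were read from the 3' end of transcripts they do not check an exon deleted elsewhere in the gene.

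Mature dendritic cells are conventional dendritic cells that have taken up antigen, stopped sampling their surroundings and started to move toward the draining lymph node. The chemokine receptor CCR7 guides that movement, and the actin-bundling protein fascin, the product of Fscn1, builds the long processes these cells use to migrate and to touch T cells. On maturation such cells raise costimulatory ligands for T cells, NF-kB factors and chemokines, and in tumors they also carry inhibitory ligands such as PD-L1, for which they have been called mature dendritic cells enriched in immunoregulatory molecules.

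Since cells were chosen on these counts, every comparison of members with other cells below is a description and carries no test. Levels are UMIs per 10000 UMIs summed over the cells of a group in 1 tumor. Members were set beside cDC1, the cross-presenting dendritic cells (at least 2 UMIs of Xcr1 and Clec9a, 249 cells), beside dendritic cells with at least 2 UMIs of Cd209a and none of Xcr1 or Clec9a (309 cells), beside T cells (7863 cells) and beside all 27120 other kept cells. Both dendritic groups were also chosen on UMIs, and their median depth was higher than that of the members, 11680 UMIs per cell in cDC1 and 6355 in Cd209a dendritic cells against 4785. The levels used here are shares of all UMIs and do not scale with this depth, but several levels in members rose when the 10% deepest members were left out.

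The 4 marker genes that set no threshold were high in the same cells. Ccl22 encodes a chemokine for CCR4 on regulatory and other T cells, and its level was 4.57, 7.49, 8.13 and 8.63 UMIs per 10000 in the members. In all other kept cells it was between 0.12 and 0.33. The Csf1r fl/fl tumor of run 1 was low among the 4 for Ccl22. Both Lyve1Cre Csf1r fl/fl tumors were above both Csf1r fl/fl tumors, as for 10.5% of the 8518 genes tested between genotypes. Il4i1, a secreted amino acid oxidase that restrains T cells, was at 4.23, 5.34, 4.30 and 4.55. Socs2, an inhibitor of cytokine signaling, was at 5.56, 7.14, 5.20 and 6.39, and Cacnb3, a calcium channel subunit, at 4.60, 6.22, 5.13 and 6.12. Both run 2 tumors were above both run 1 tumors for Il4i1, Socs2 and Cacnb3, an order found in 44.3% of the 8518 genes tested between genotypes. Although members made up 4.75% of the UMIs of all kept cells, they held 60.0% of all Ccl22 UMIs, 60.4% of those of Cacnb3, 52.6% of those of Socs2 and 51.6% of those of Il4i1. Of these 4 genes a member held all 4 in 43.3% of cells, 3 in 37.6% and none in 0.688%, whereas 86.8% of T cells held none. Each of these 4 markers was higher in members than in every other group of every tumor, as were Fscn1 and Ccr7, which the rule itself fixed.

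The thresholds cut a continuous range. The median member held 10 UMIs of Fscn1 (quartiles 6 and 16) and 8 of Ccr7 (quartiles 4 and 13). Just inside, the 55 members with 2 UMIs of Fscn1 had Il4i1 at 5.15 and Cacnb3 at 4.80 UMIs per 10000. Just outside, 81 cells with 1 UMI of Fscn1 had Il4i1 at 3.68 and Cacnb3 at 3.34. The 84 members with 1 UMI of Ccr7 were lower, with Il4i1 at 2.06 and Cacnb3 at 2.68. The 231 cells with Fscn1 and no Ccr7 were far lower, with Il4i1 at 0.49 and Cacnb3 at 0.56, at a median of 12211 UMIs per cell. A further 437 kept cells met the limits on Fscn1 and Ccr7 but not those on T, B, neutrophil or C1q genes, and they had a median of 8406 UMIs per cell and Il4i1 at 2.65.

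**Figure D1:**
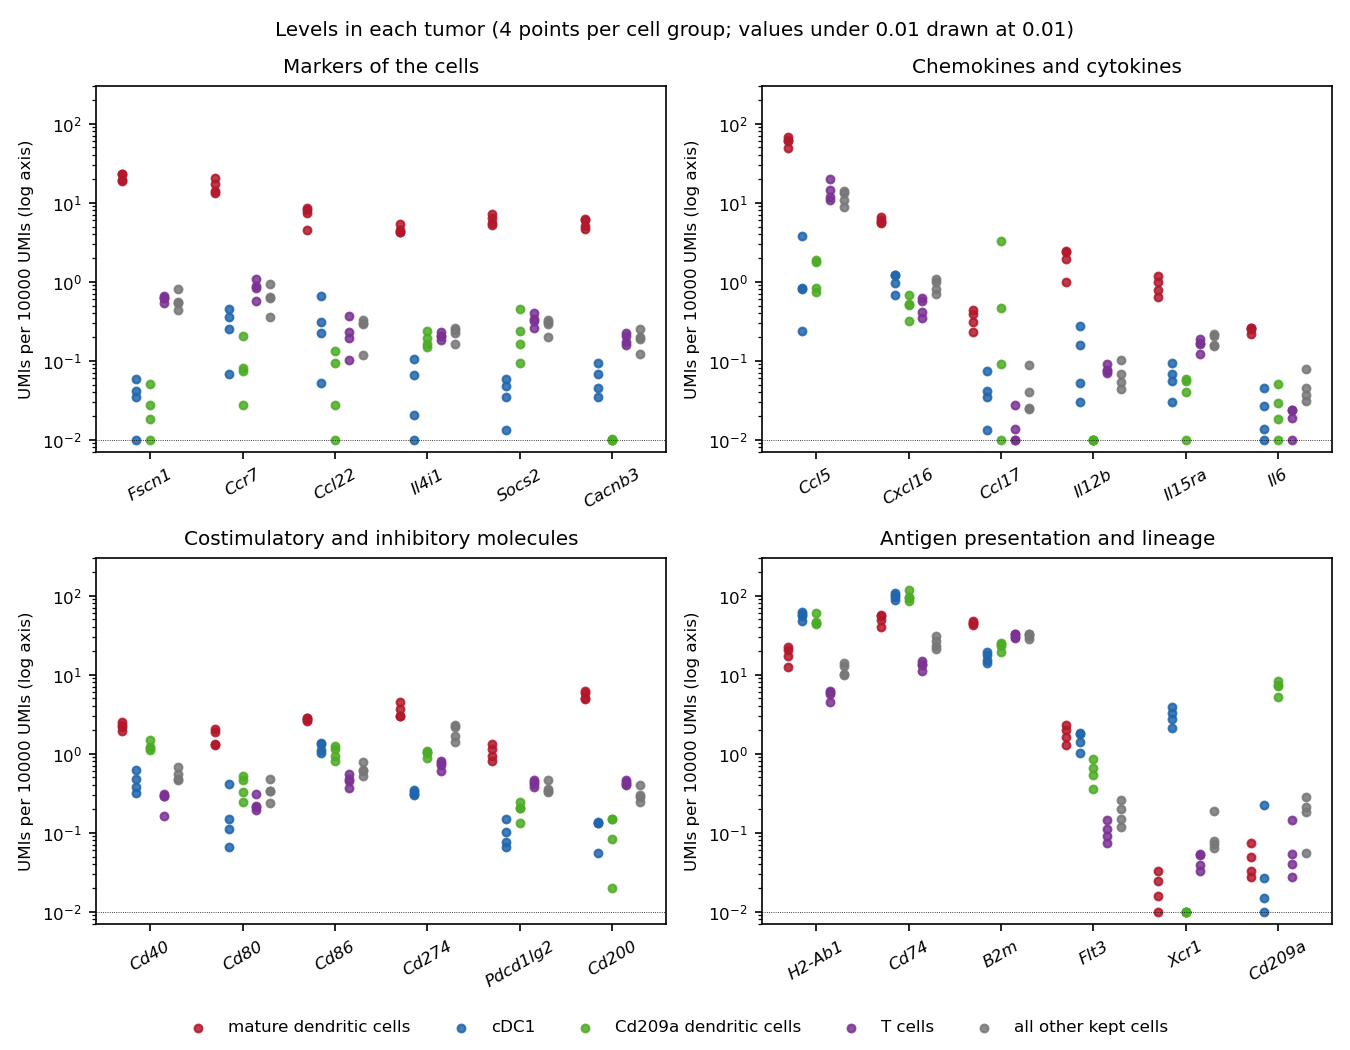
Level of 24 genes (UMIs per 10000 UMIs, log axis) in the mature dendritic cells, cDC1, Cd209a dendritic cells, T cells and all other kept cells, with 1 point for each of the 4 tumors and values under 0.01 drawn at 0.01. The 6 markers, of which Fscn1 and Ccr7 chose the cells, were higher in the mature dendritic cells than in any other group of any tumor, while H2-Ab1 and Cd74 were lower than in both other dendritic groups.

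The maturation program as a whole stood with the members. All 23 of its genes were higher in members than in all other kept cells in every tumor, as were 10.6% of the 22232 genes with a UMI. This list was drawn up with results of these data known, so its count adds no independent support. Fabp5, a fatty acid carrier, was at 47.7, 35.4, 61.1 and 38.5 UMIs per 10000. Both run 1 tumors were above both run 2 tumors, as for 12.3% of the 8518 genes tested between genotypes. Tbc1d4, a Rab GTPase-activating protein, was at 22.5, 27.5, 19.5 and 27.2, and 56.8% of its UMIs in kept cells lay in members. Cd63, a tetraspanin of late endosomes, was at 8.98 to 11.4 in members, against a mean of 0.10 in cDC1 and 0.13 in Cd209a dendritic cells.

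The 20 genes that led the members over all other kept cells in every tumor were Fscn1, Gm13546, Ccl22, Strip2, Cacnb3, Adcy6, Tbc1d4, Ccr7, Ramp3, Bcl2l14, Socs2, Il4i1, Mmp25, Slc4a8, Sema7a, Zmynd15, Cd200, Nostrin, Net1 and H2-Eb2. They include all 6 markers, and 9 of the 20 are on the gene lists used here. The smallest log2 ratio in any tumor (on counts scaled to library size) ran from 4.82 for Fscn1 to 3.43 for H2-Eb2. Several have known roles at the cell surface or in signaling. Ramp3 encodes an accessory protein of the calcitonin-like receptors and was at 4.52, 4.66, 4.82 and 4.09 UMIs per 10000. Mmp25, a membrane-anchored metalloproteinase, was at 3.10, 4.99, 3.25 and 3.98. Sema7a, a membrane semaphorin that binds integrins, was at 1.72, 3.48, 2.11 and 2.77, and Adcy6, an adenylyl cyclase, at 1.07, 1.55, 1.21 and 1.37. Both run 2 tumors were the higher for Mmp25, Sema7a and Adcy6, as for 44.3% of genes tested. H2-Eb2, a class II beta chain gene, was at 1.42, 1.29, 1.08 and 1.26 in members, and 15.7 times the mean of cDC1.

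**Figure D2:**
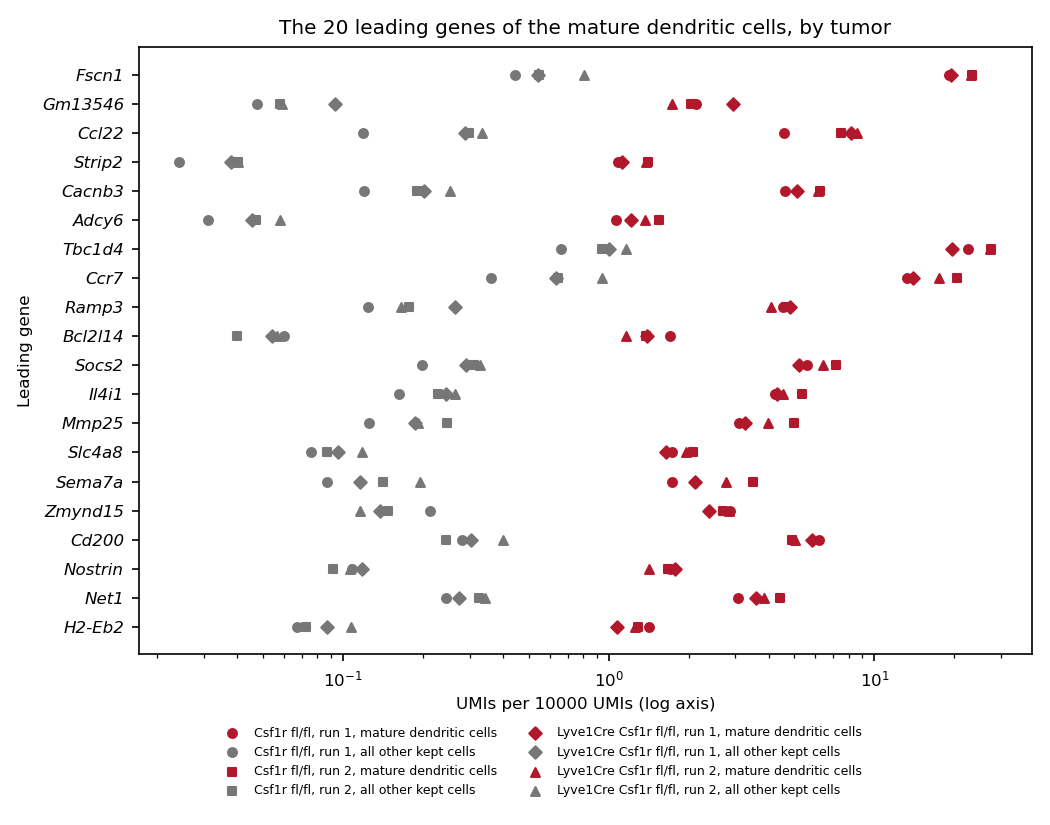
Levels of the 20 leading genes (UMIs per 10000 UMIs, log axis) in mature dendritic cells (red) and all other kept cells (grey), with a marker shape for each of the 4 tumors. No red point of a gene reaches its grey points, with Fscn1 at 19.0 to 23.2 against at most 0.81.

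The chemokine ligands split. Ccl22, Ccl17, Ccl5 and Cxcl16 were higher in members than in all other kept cells in every tumor, and 7 of the 13 ligands were lower in every tumor, as were 39.9% of all genes, Cxcl2, Ccl3 and Ccl4 among them. Ccl5, a chemokine that draws T cells, was at 61.8, 61.2, 67.4 and 49.1 UMIs per 10000, and the Lyve1Cre Csf1r fl/fl tumor of run 2 was the lowest. Ccl5 is also a product of T cells, where its mean level was 14.2, while cDC1 were at 1.42 and Cd209a dendritic cells at 1.30. Cxcl16, the ligand of CXCR6 on resident T cells, was at 5.74, 6.62, 5.47 and 6.03, and 24.3% of its UMIs in kept cells lay in members. Ccl17, which shares the receptor CCR4 with Ccl22, was low at 0.23, 0.31, 0.39 and 0.44. Among 10 chemokine receptors Ccr7, which the rule fixed, was the only one higher in members in every tumor (10.6% of all genes), and 8 were lower (39.9% of all genes), including Ccr2 and Ccr1, receptors that bring cells into inflamed tissue.

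Of 16 cytokine genes 5 were higher in members in every tumor, beside 10.6% of all genes, namely Il12b, Ebi3, Il15, Il15ra and Il6. Il12b, the shared chain of IL-12 and IL-23, was at 2.42, 2.37, 1.96 and 0.99 UMIs per 10000, lowest in the Lyve1Cre Csf1r fl/fl tumor of run 2. Members held 59.3% of all Il12b UMIs in kept cells, from 45.9% to 77.3% by tumor, and the gene was listed at 0 in the Cd209a dendritic cells of all 4 tumors. It was also uneven among members, with a UMI in 19.4% of them against 0.801% of T cells, at median depths of 4785 and 4695 UMIs per cell. With each cell thinned to 3000 UMIs (1096 members and 5633 T cells were deep enough), 15.2% of members and 0.64% of T cells had an Il12b UMI. Il15ra, which presents IL-15 to T and NK cells, was at 0.633, 1.19, 0.779 and 0.997, and Il15 itself at 0.48, 0.63, 0.55 and 0.57. Il10 was close to absent with 4 UMIs in 1309 members, and 7 of the 16 cytokine genes were lower in members than in all other kept cells in every tumor, a share near the 39.9% of all genes.

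Costimulatory molecules were high in members. Of 11 genes 9 were higher in members than in all other kept cells in every tumor, beside 10.6% of all genes. Cd83, a maturation antigen that holds class II molecules at the surface, was at 4.87, 7.16, 5.27 and 6.74 UMIs per 10000. Cd86, a ligand of CD28, was even across tumors at 2.80, 2.66, 2.59 and 2.80. Cd40, the receptor through which T cells license dendritic cells, was at 2.15, 2.32, 1.96 and 2.54, and Cd80 at 1.29, 2.04, 1.33 and 1.87. The mean in cDC1 was 1.21 for Cd86, 0.449 for Cd40 and 0.185 for Cd80. Against Cd209a dendritic cells 7 of the 11 genes were higher in members in every tumor and 1 was lower, beside 12.2% and 14.8% of all genes. The 11 genes summed to a mean of 16.9 in members, 5.19 in cDC1 and 8.32 in Cd209a dendritic cells. Cd70 and Tnfsf4, ligands of CD27 and OX40, were at 0.27 to 0.73 and 0.31 to 0.48 in members, and no Cd70 UMI was found in cDC1 or Cd209a dendritic cells.

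Inhibitory molecules were high in the members as well. Of 19 regulatory genes 11 were higher in members in every tumor, beside 10.6% of all genes, and 7 were lower, a share near the 39.9% of all genes. Cd200, whose receptor restrains myeloid cells, was at 6.18, 4.90, 5.81 and 5.02 UMIs per 10000, and Cd274, the gene of PD-L1, at 3.02, 4.50, 3.02 and 3.69. Cd200 was higher in both run 1 tumors and Cd274 in both run 2 tumors, beside 12.3% and 44.3% of the 8518 genes tested. Cd274 was not confined to members, since all other kept cells had 1.41 to 2.31, but cDC1 had a mean of 0.32. Pdcd1lg2, the gene of PD-L2, was at 0.82, 1.32, 0.92 and 1.13. After thinning to 3000 UMIs, 61.5% of members had a Cd274 UMI and 68.7% a Cd200 UMI, against 15.7% and 8.63% of T cells, 7.26% and 4.84% of cDC1, and 19.9% and 1.66% of Cd209a dendritic cells. Ido1 and Aldh1a2, enzymes tied to tolerance in other settings, stayed under 0.1 UMIs per 10000 in every tumor, with 27 and 28 UMIs in all members.

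NF-kB genes were a further shared feature. All 18 genes of the NF-kB list were higher in members than in cDC1 in every tumor, as were 15.2% of all genes with a UMI, and 13 were higher than in Cd209a dendritic cells, as were 12.2%. Relb, the transcription factor subunit of the noncanonical branch, was at 3.27, 4.70, 3.57 and 4.61 UMIs per 10000 against a mean of 0.29 in cDC1. Map3k14, the kinase that starts this branch, was at 2.45, 2.82, 2.38 and 2.59, and Nfkb2, the precursor that is cut to its active form, at 2.11, 2.88, 2.03 and 2.75. Birc2, a ubiquitin ligase that controls Map3k14, was at 3.99, 5.32, 4.35 and 4.60. Nfkbia, the canonical inhibitor, was lower in members (6.38 to 7.35) than in all other kept cells of every tumor, as were Nfkbiz and Tnfaip3. Both run 2 tumors were above both run 1 tumors for 13 of the 18 genes, against 44.3% of all genes tested between genotypes.

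Promoters of these genes were searched for the NF-kB consensus on both strands, in windows of 300 bases from 250 bases before to 50 after each RefSeq start (GRCm38.p6, the build of the authors' mm10). A gene counted once however many of its windows or overlapping sites matched. Of the 27025 genes with a window 9.55% had a match. The share was 8 of the 15 NF-kB list genes with a window (Nfkb2, Rel, Nfkbia, Nfkbie, Traf3, Tnfaip3, Tnip1 and Bcl3), 3 of 16 leading genes (Ramp3, Mmp25 and Slc4a8) and 2 of 16 genes of the maturation program (Epsti1 and Ramp3). Shown are Nfkb2 and Nfkbia, which have matches near the start, and Fscn1, the gene of the rule, whose window has none. Capitals mark bases of a match and each window is read 5' to 3' on the strand of its gene.
Nfkb2, chr19:46304487-46304786, + strand: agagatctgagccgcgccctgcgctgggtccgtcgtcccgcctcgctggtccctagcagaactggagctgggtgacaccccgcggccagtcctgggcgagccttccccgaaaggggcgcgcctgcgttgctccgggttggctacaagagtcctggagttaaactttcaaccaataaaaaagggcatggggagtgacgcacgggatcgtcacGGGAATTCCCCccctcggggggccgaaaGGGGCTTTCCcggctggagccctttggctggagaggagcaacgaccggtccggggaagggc
Nfkbia, chr12:55492598-55492897, - strand: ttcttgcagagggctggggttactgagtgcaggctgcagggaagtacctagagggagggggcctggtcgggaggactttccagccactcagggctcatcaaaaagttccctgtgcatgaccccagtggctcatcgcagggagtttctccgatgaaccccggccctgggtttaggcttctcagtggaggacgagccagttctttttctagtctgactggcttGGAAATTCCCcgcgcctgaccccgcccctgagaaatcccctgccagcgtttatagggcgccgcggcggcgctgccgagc
Fscn1, chr5:142960105-142960404, + strand: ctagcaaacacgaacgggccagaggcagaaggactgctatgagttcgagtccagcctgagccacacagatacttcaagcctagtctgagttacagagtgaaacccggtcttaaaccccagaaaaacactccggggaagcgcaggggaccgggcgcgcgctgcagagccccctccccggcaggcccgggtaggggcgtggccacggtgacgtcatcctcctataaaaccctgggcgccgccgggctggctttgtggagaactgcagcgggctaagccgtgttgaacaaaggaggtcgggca
In the Nfkb2 window the matches begin 39 and 38 bases before the start, on overlapping bases of both strands, and 11 bases before it. The Nfkbia match begins 29 bases before the start and lies on the opposite strand. A match says that these letters are present and no match says that they are not in this window.

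Antigen presentation differed by class. Of 12 class II genes 9 were lower in members than in cDC1 in every tumor, as were 14.2% of all genes, and 8 were lower than in Cd209a dendritic cells, as were 14.8%. Against all other kept cells 7 of the 12 were higher in members in every tumor and 3 were lower, beside 10.6% and 39.9% of all genes. Cd74, the invariant chain, was at 56.0, 49.0, 56.4 and 40.2 UMIs per 10000 in members, and its mean in cDC1 was 1.95 times theirs. H2-Ab1, a class II beta chain, was at 22.3, 17.3, 20.7 and 12.5, and 3.08 times higher in cDC1. The gap was wider for genes that load peptide or turn class II over. H2-DMb1, a subunit of the peptide exchange factor, was at 0.64, 0.52, 0.49 and 0.36 and was 8.08 times higher in cDC1. March1, the ubiquitin ligase that removes class II and CD86 from the surface, was at 0.05 to 0.10 in members and 17.1 times higher in cDC1. Class I genes went the other way, with 9 of 14 higher in members than in cDC1 in every tumor, beside 15.2% of all genes. B2m, the class I light chain, was at 44.9, 48.1, 41.9 and 45.6, or 2.73 times cDC1, and H2-K1 at 20.2 to 24.6, or 3.18 times.

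Lineage genes of conventional dendritic cells were present, while subset genes were lower than in the subset they mark. Flt3, the growth factor receptor of the lineage, was at 1.29, 2.30, 1.62 and 2.02 UMIs per 10000 in members and 1.51 in cDC1. Zbtb46, a transcription factor of conventional dendritic cells, was at 0.53, 0.92, 0.64 and 0.85. Batf3, needed for cDC1 development, was at 2.12, 2.32, 2.42 and 2.31, close to the 2.50 of cDC1 and above the 0.27 of Cd209a dendritic cells. Irf8 was at 8.61, 12.4, 7.32 and 10.5, between the 15.2 of cDC1 and the 2.19 of Cd209a dendritic cells. Yet all 12 cDC1 genes were lower in members than in cDC1 in every tumor, beside 14.2% of all genes and against cells chosen on Xcr1 and Clec9a, and 6 were under 0.1 in every tumor, Xcr1 (0.01 to 0.03) and Tlr3 (0.01 to 0.02) among them. All 10 cDC2 genes were lower than in Cd209a dendritic cells (14.8% of all genes), which were chosen on Cd209a, yet 4 of them were higher than in cDC1 in every tumor (15.2% of all genes). The list summed to 28.7 to 47.5 in members and to 49.9 to 74.8 in all other kept cells, the higher in every tumor. Of the 10, 8 were lower in members than in all other kept cells in every tumor and 1 was higher, beside 39.9% and 10.6% of all genes. An Xcr1 or Clec9a UMI was found in 30 members and a Cd209a UMI in 11.

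Genes of antigen uptake and of danger sensing were lower than in all other kept cells, where 39.9% of all genes were lower in every tumor. Of 14 uptake receptors measured, 12 were lower in members in every tumor, and Ly75 was the only one higher, at 1.13, 1.43, 1.39 and 1.45 UMIs per 10000. Ly75 encodes DEC-205, an endocytic receptor that increases on maturation. Against cDC1 the list was not ordered one way, with 4 uptake receptors higher and 4 lower in every tumor, beside 15.2% and 14.2% of all genes. Of 15 Toll-like receptor and adaptor genes 12 were lower, and 9 stayed under 0.1 in every tumor. Cell cycle genes were lower in all 19 cases, with Mki67 at 0.22, 0.18, 0.18 and 0.15 against a mean of 1.41 in cDC1, 0.69 in Cd209a dendritic cells and 2.81 in T cells. Of the 19, 5 were lower than in Cd209a dendritic cells in every tumor, beside 14.8% of all genes. The sum in Cd209a dendritic cells, 7.56, 5.86, 7.42 and 24.2, was close to the 6.27, 5.80, 7.04 and 9.06 of members in 3 of the 4 tumors. Cytoskeleton genes were higher for 14 of 21, beside 10.6% of all genes. Lsp1, an actin-binding protein of leukocytes, was the most even of those described, at 16.1, 16.7, 16.4 and 16.4, or 3.85 times the mean of all other kept cells. Of 9 survival genes 3 were higher in both run 1 tumors and 4 in both run 2 tumors, beside 12.3% and 44.3% of the 8518 genes tested. Bcl2a1d and Bcl2a1b, of the Bcl2a1 family, had the first order. Bcl2a1d was at 11.7, 6.79, 12.1 and 7.07 and Bcl2a1b at 29.6, 20.4, 30.6 and 20.7. These copies are nearly identical in sequence, so how reads were split between them is uncertain.

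Markers of other cell types were not absent from the members. For 3 of the 7 marker lists, the neutrophil list that the member rule limits among them, the sums of the genotypes did not overlap. Of the 8518 single genes tested between genotypes 13.5% were higher in both Csf1r fl/fl tumors, a share of genes and not of sums. The 5 neutrophil markers summed to 19.1, 10.2, 7.69 and 5.45 UMIs per 10000 in members, and the 6 NK-cell markers to 4.93, 5.46, 1.82 and 0.18. The 4 plasmacytoid dendritic cell markers summed to 0.38, 0.28, 0.04 and 0.03, and the 6 macrophage markers to 2.32, 0.61, 0.66 and 0.45. The Csf1r fl/fl tumors lay above the Lyve1Cre Csf1r fl/fl tumors for neutrophil, NK-cell and plasmacytoid markers. Most of the neutrophil sum was S100a8 and S100a9, which the member rule limits, so nothing is read from its order. In all other kept cells the neutrophil sum was 210, 161, 287 and 102 and the NK-cell sum 21.1, 13.1, 17.8 and 20.8, and neither was ordered by genotype. T-cell markers summed to 0.42 to 0.57 in members, with Trac, a defining marker, at 0.03 to 0.06, the sums of B-cell markers were 0.17 to 0.32 and those of tumor and stromal markers 0.28 to 1.27. The genotypes overlapped for T-cell, B-cell, macrophage and tumor or stromal markers. The member rule left out cells with UMIs of Cd3 genes or Cd79a and limited the C1q genes of the macrophage list, so the low level of the T-cell, B-cell and macrophage sums was in part fixed by it. All of these sums include RNA that is free in the droplet or from a second cell, and its part in the results was not tested.

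**Figure D3:**
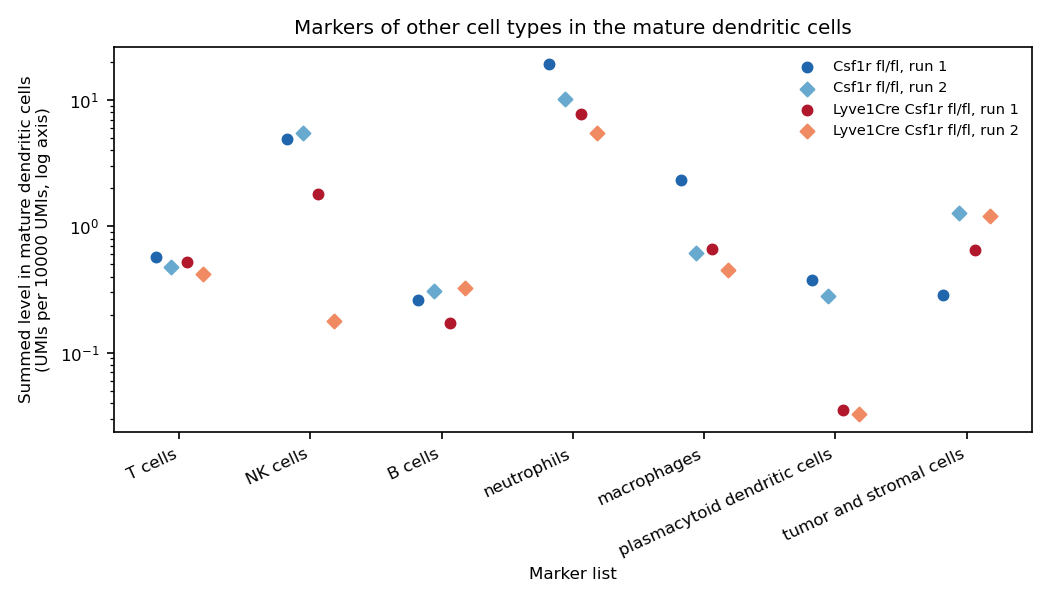
Summed level of 7 lists of markers of other cell types in the mature dendritic cells of each tumor (UMIs per 10000 UMIs, log axis, 1 point per tumor). NK-cell markers ran from 5.46 in a Csf1r fl/fl tumor to 0.18 in a Lyve1Cre Csf1r fl/fl tumor.

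Whether loss of Lyve1-lineage Csf1r moved the size of the population was asked from the share of kept cells. Members made up 3.45% of kept cells in the control tumor (Csf1r fl/fl) of run 1 (95% exact Clopper-Pearson interval 3.07% to 3.86%) and 4.48% in that of run 2 (4.03% to 4.97%). They made up 6.36% in the Lyve1Cre Csf1r fl/fl tumor of run 1 (5.81% to 6.95%) and 4.23% in that of run 2 (3.68% to 4.84%). These intervals cover counting error only. The Lyve1Cre Csf1r fl/fl tumor was higher in run 1 and the lower of its pair in run 2, with log2 ratios of 0.88 and -0.08, so the genotypes overlapped. The means were 3.97% ± 0.73 (SD, n = 2 tumors) and 5.30% ± 1.50 (SD, n = 2), a difference within the spread between tumors (exact permutation test, two-sided p = 0.667, where 0.333 is the smallest that 2 tumors against 2 allow). The Lyve1Cre Csf1r fl/fl tumor of run 1 carried most of the difference, since the log2 ratio of the means was 0.42 with it and 0.09 without it. The share is of sorted CD45+ cells that passed the authors' filters. The authors had also removed clusters that came almost only from the Lyve1Cre Csf1r fl/fl tumor of run 2. How this removal moved the share in that tumor was not tested. With neutrophils, 15.2% to 25.7% of kept cells, left out of the total the share was 4.27%, 5.74%, 8.56% and 4.99%. The log2 ratio of the means was then 0.44.

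**Figure D4:**
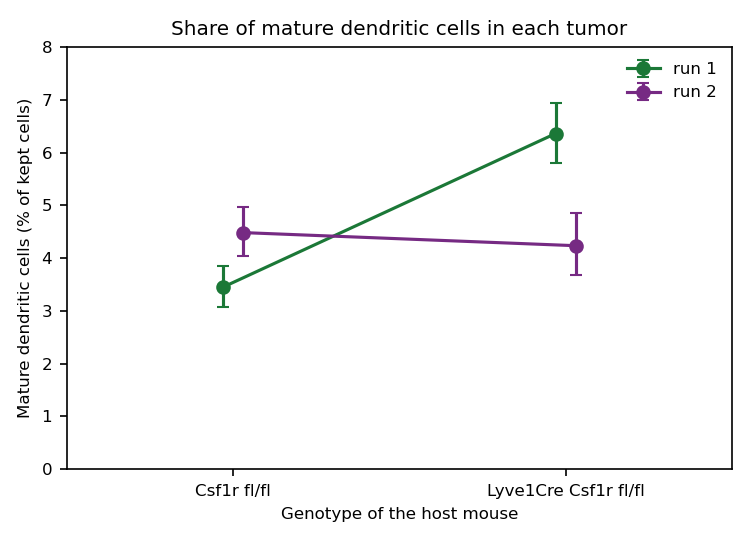
Share of mature dendritic cells in the kept cells of each tumor (percent, bars for 95% exact binomial intervals), with lines joining the tumors of a run. The lines run from 3.45% to 6.36% in run 1 and from 4.48% to 4.23% in run 2.

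Expression in members did not separate the genotypes at the chosen threshold. Of 8518 genes that passed the count filter none had an adjusted p under 0.05 (edgeR quasi-likelihood test on UMIs summed per tumor, n = 2 per genotype, Benjamini-Hochberg), which is 0% of genes tested. At an unadjusted p under 0.05 (edgeR) there were 224 of the 8518 genes, a smaller share than the 0.05 that this cutoff lets through if no gene differs. With run as a term in the edgeR fit there were 697 of the 8518, a larger share than 0.05. The count therefore depended on whether the pairing of tumors by run was used, and no lack of difference is read from it. DESeq2 called 1, Xcl1 (log2 fold change -2.96, adjusted p = 0.00148). Of the markers that set no threshold, the log2 fold changes (Lyve1Cre Csf1r fl/fl over Csf1r fl/fl) were -0.10 for Il4i1, -0.13 for Socs2 and 0.07 for Cacnb3, with standard errors of 0.23 to 0.24. Those of Fscn1 (0.02) and Ccr7 (-0.08) are of genes that chose the cells in every tumor, and nothing is read from them. Ccl22 was at 0.50 ± 0.27 (SE), and positive in both runs, but did not pass (adjusted p = 1.0 in edgeR). Il12b was at -0.64 ± 0.36 (SE) and did not pass either.

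The tumors of a run shared a library preparation, and more genes were ordered by run than by genotype. Of the 8518 genes 12.3% were higher in both run 1 tumors and 44.3% in both run 2 tumors, whereas 10.5% were higher in both Lyve1Cre Csf1r fl/fl tumors and 13.5% in both Csf1r fl/fl tumors. These orders, here and above, are of plain shares of UMIs, without the TMM scaling between tumors that the edgeR test used. With run as a block in the edgeR fit 29 genes passed, 0.34% of those tested, of which 8 rose (0.0939%) and 21 fell (0.247%) in the Lyve1Cre Csf1r fl/fl tumors. Those that fell were Xcl1, Ccl4, Ccl3, Gzma, Gzmb and Gzmc, known from NK and T cells among others, S100a8, S100a9, G0s2, Clec4d, Slfn4 and Wfdc17, known from neutrophils or monocytes, C1qa, Pf4, Ccl7 and Ccl12, known from macrophages, Siglech of plasmacytoid dendritic cells, and Cxcl2, Cxcl9, Lilr4b and Dusp1. Of these 21 genes 20 were lower in members than in all other kept cells in every tumor, as were 39.9% of all genes with a UMI, and 7 were on a marker list of another cell type, as were 26 of the 8518 genes tested. S100a8, S100a9 and C1qa are limited by the member rule, which fixed their low level. Of the 21, 5 (C1qa, Pf4, Ccl7, Ccl12 and Cxcl9) also fell in all other kept cells in both runs. Genes that rose were AI506816, Gm4316, Hmgn5, Rhox5, Mt2, S100a10, Apol7c and Nhp2, and 2 of these 8 were lower in members than in all other kept cells in every tumor, beside the same 39.9%. Of the 8, 1 (Rhox5) also rose in all other kept cells in both runs. The shares of all genes that fell or rose there in both runs were not counted, so nothing is read from either count.

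The 5 genes with the smallest unadjusted p without the block were Xcl1, Siglech, C1qa, Hmgn5 and Gzmc, none of which passed. Xcl1, the ligand of XCR1 made by NK and T cells, was at 0.56, 0.36, 0.07 and 0.05 UMIs per 10000 in members. Its log2 fold change was -2.92 ± 0.42 (SE), with an adjusted p of 0.574 without the block and 4.55e-05 with it (edgeR), and between 2.14e-11 and 1.0 over 12 alternatives. The value moved with the member definition, to -0.69 when cells with 1 UMI of Fscn1 were added and to -1.87 without the 10% deepest members. In all other kept cells Xcl1 was at 2.10, 1.73, 2.52 and 3.62, higher in the Lyve1Cre Csf1r fl/fl tumor of each run. Siglech was at 0.13, 0.13, 0.01 and 0.01 in members, from 54 UMIs in all. C1qa, one of the genes the rule limits, was at 0.28, 0.16, 0.04 and 0.03. In all other kept cells C1qa was at 3.92, 1.90, 0.88 and 0.76, lower in the Lyve1Cre Csf1r fl/fl tumor of each run. Gzmc was at 0.43, 0.36, 0.12 and 0.04, and its log2 fold change moved from -2.13 to -0.48 when cells with 1 UMI of Fscn1 were added. Hmgn5, a nucleosome-binding protein, was higher in both Lyve1Cre Csf1r fl/fl tumors, at 0.23, 0.21, 0.45 and 0.74, with a log2 fold change of 1.38 ± 0.29 (SE). Of the genes that rose with the block, Apol7c belongs to the maturation program, at 0.43, 0.30, 0.64 and 1.30 in members against at most 0.03 in all other kept cells, with a log2 fold change of 1.34 ± 0.26 (SE, edgeR adjusted p = 0.0267 with run as a block, and 0.00136 to 1.0 over its 14 alternatives).

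**Figure D5:**
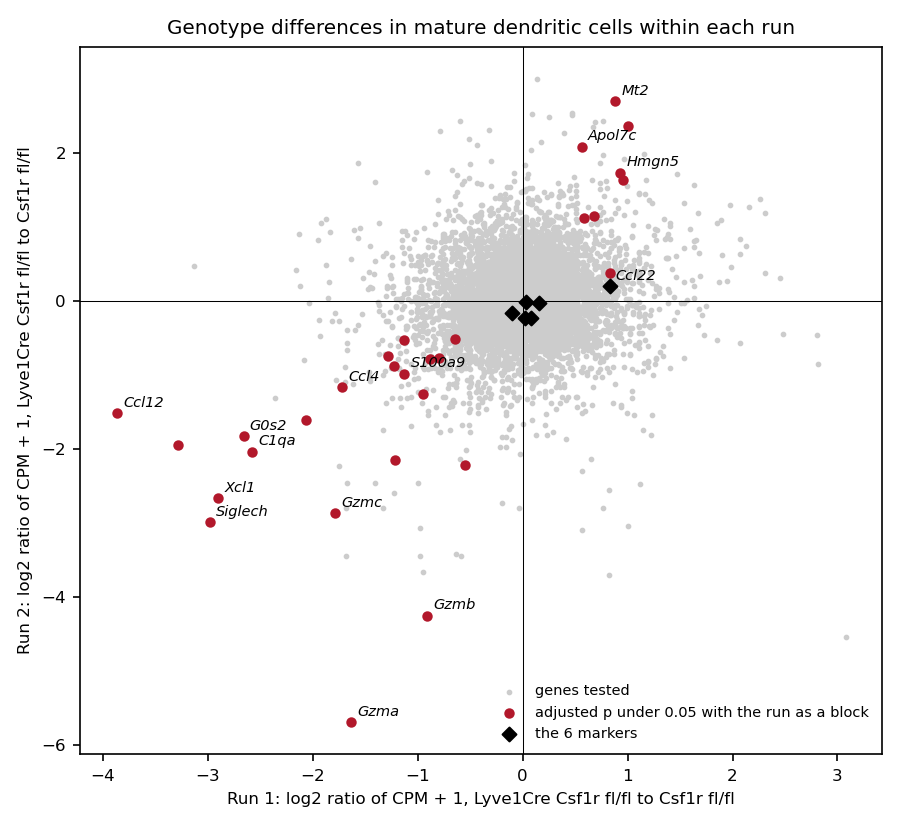
Log2 ratio (on scaled counts) of Lyve1Cre Csf1r fl/fl to Csf1r fl/fl in mature dendritic cells, run 1 on the horizontal and run 2 on the vertical axis, for the 8518 genes tested (grey), the 29 that passed with run as a block (red) and the 6 markers (black diamonds). The markers lie near 0 apart from Ccl22 at 0.83 in run 1, and Xcl1, Siglech, C1qa and Gzmc lie at the lower left.

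No gene of any list passed between genotypes without the block. The median log2 fold change was -0.06 over the 23 maturation genes tested, -0.04 over the 18 NF-kB genes, -0.10 over 10 of the 11 costimulatory genes (9 below 0) and -0.13 over 15 of the 19 regulatory genes (13 below 0), beside 0.00 over all genes tested. It was -0.21 over the 12 class II genes and -0.10 over the 14 class I genes. Lower medians were found for 12 chemokine ligands (-0.34, 10 below 0), 5 chemokine receptors (-0.52), 9 cDC2 genes (-0.48), 11 uptake receptors (-0.37) and 7 Toll-like receptor genes (-0.33, all below 0). Interferon-stimulated genes had a median of -0.23 with all 18 below 0, and cell cycle genes 0.44 with 16 of 17 above 0, beside 4216 below and 4302 above 0 among all 8518. None of these genes passed. The median was -1.95 for the 6 NK-cell markers. That of the 5 neutrophil markers, -1.10, is the value of S100a8, a gene the member rule limits. With the block 1 maturation gene rose (Apol7c), and 4 chemokine ligands, 2 NK-cell, 3 neutrophil, 1 macrophage and 1 plasmacytoid marker fell, beside 0.247% of all genes tested. Of these, S100a8, S100a9 and C1qa are limited by the member rule.

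The genotype difference in members was also tested against that in cDC1 and Cd209a dendritic cells summed together, with the tumor as a block. The makeup of that sum differed between genotypes, since cDC1 gave 69.0%, 59.4%, 55.5% and 44.4% of its UMIs in the 4 tumors. The test on the sum does not separate a shift in makeup from a change within a cell type. Of 9165 genes 6 differed (edgeR interaction test, 0.0655% of those tested), 5 with a lower value in members (0.0546%) and 1 with a higher one (0.0109%). Cxcl2, a neutrophil chemokine, was at 10.9, 5.77, 7.42 and 1.23 UMIs per 10000 in members and 9.29, 3.39, 15.2 and 4.37 in the other dendritic cells, where the Lyve1Cre Csf1r fl/fl tumor was the higher in each run. The difference between the log2 fold changes was -1.87 ± 0.23 (SE, adjusted p = 0.00247 in edgeR). Il1b was at 7.80, 7.52, 6.87 and 4.63 in members and 6.02, 4.97, 9.89 and 7.09 in the others, a difference of -1.08 ± 0.17 (SE, edgeR adjusted p = 0.0118). Ifitm1, an interferon-induced membrane protein, was at 4.76, 4.10, 4.39 and 2.99 in members and 9.49, 8.88, 20.7 and 15.01 in the others, a difference of -1.25 ± 0.17 (SE, edgeR adjusted p = 0.00305). G0s2 and Ccl4 also had negative differences, and Ube2c, a cell cycle gene, a positive one at 0.14, 0.18, 0.33 and 0.15 in members against 1.52, 1.10, 0.30 and 0.41. Within cDC1 alone Ube2c was at 2.16, 1.70, 0.42 and 0.27, and within Cd209a dendritic cells at 0.09, 0.21, 0.15 and 0.52. None of the 6 passed when the run 2 tumor of the Csf1r fl/fl group was left out, or without the tumor term, and over 8 alternatives the adjusted p ran up to 1.0 and down to 1.3e-21 for Cxcl2, 1.46e-06 for Il1b and 1.46e-09 for Ifitm1. The direction of the difference was not reversed in any alternative for any of the 6. For all 6 genes the members were lower than all other kept cells in every tumor, as for 39.9% of all genes.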

How the data were processed

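CD45+ viable cells sorted from EO771 tumors, each tumor from 1 mouse, were measured by droplet 3' single-cell RNA sequencing with hashtag antibodies. Per the submitters' processing notes, the authors used Cell Ranger 6.0.1 and mm10. The deposited counts are raw UMIs per gene and barcode of each run. The authors' normalized table holds whole-number scores from SCTransform in Seurat and was used here only for which barcodes the authors kept, after their filters for hashtag singlets and under 5% mitochondrial counts. Hashtag counts gave each cell its tumor, the higher of the pair, through the hashtags named in the labels. No doublet caller was run.

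UMIs of members were summed per tumor and tested with edgeR 4.0.16 in R 4.3.3 (filterByExpr, TMM, quasi-likelihood test, Benjamini-Hochberg at 0.05), without a block as the main fit. DESeq2 1.42.0 was an alternative. Log2 ratios within a run or tumor used UMIs scaled to library size with a pseudocount of 1 CPM. Levels and shares came from Python 3.11.15 with numpy 2.4.6, pandas 2.3.3 and scipy 1.17.1. The tumors of a run shared a Chromium run, and their deviations from the genotype means correlated at 0.35. With 2 tumors per genotype these deviations are mirror images, so both runs give the same single value. As a check for a library deposited in duplicate, counts of the tumors of each genotype were compared (chi-square per degree of freedom 10.8 and 8.44), and each tumor was counted as 1 sample. Members and gene lists were chosen with earlier results of these data known. Named by rule were the 6 markers, list genes with the highest levels in members or near absent from them (under 0.1 UMIs per 10000), the 20 leading genes (largest smallest log2 ratio over the 4 tumors, at 1 or more UMIs per 10000 in each) and, since under 3 genes passed between genotypes, the 5 with the smallest p. Other list genes, named for their known role, and the genes called only with the block were chosen after their values were seen. Alternatives changed scaling, the count filter, the tool, the block, the tumors and the member definition, and leaving out members with Gzma, S100a8 or S100a9 UMIs was chosen after seeing the data. The edgeR steps of the main fit were tested on simulated data, and those of the fit with the run block and of the interaction test were not.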

Additional observations from a re-analysis of the deposited data

Results flagged for a closer look

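The share of members differed in direction between the runs, with a log2 ratio of Lyve1Cre Csf1r fl/fl to Csf1r fl/fl of 0.88 in run 1 and -0.08 in run 2. With 1 tumor per genotype in a run, this difference was not tested.

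The genotype difference of 6 genes was unlike that of the other conventional dendritic cells (edgeR interaction test), whose makeup differed between genotypes. The differences between log2 fold changes were -1.87 for Cxcl2, -1.25 for Ifitm1, -3.41 for G0s2 (adjusted p = 0.00561), -1.08 for Il1b, -1.56 for Ccl4 (adjusted p = 0.0178) and 2.55 for Ube2c (adjusted p = 0.0178). The values of G0s2 and Ube2c were the least stable, each past the threshold in 3 of 8 alternatives. DESeq2 gave them adjusted p = 0.403 and 0.413. When the Lyve1Cre Csf1r fl/fl tumor of run 1 was left out, they were -1.27 (edgeR adjusted p = 0.51) and 1.58 (adjusted p = 0.104). Leaving out the control tumor of run 1 also lost G0s2 (-2.61, edgeR adjusted p = 0.369), Ube2c (2.23, adjusted p = 0.511) and Ccl4 (-1.14, adjusted p = 0.546), and leaving out that of run 2 lost all 6. All 6 kept the direction of their difference in every alternative. G0s2 was at 1.69, 0.54, 0.26 and 0.15 UMIs per 10000 in members, and Ccl4 at 4.03, 1.98, 1.21 and 0.88.

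Outside the cells that the authors kept, 226 barcodes met the gene limits of the members, 113 in each run. Of the 226 barcodes, 23 had 5% or more mitochondrial UMIs, and in 102 the higher hashtag was under 3 times the other. Either held for 120, and why the rest were not kept was not tested.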

How the results depend on the processing

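The genotype count of 0 genes stayed 0 with DESeq2 size factors in edgeR and under 5 other member definitions. It was 29 with run as a replicate block, 1 with DESeq2 and 58 with no filter on low counts. Without members with Gzma, S100a8 or S100a9 UMIs (315 cells left) it was 1. Leaving out a control (Csf1r fl/fl) tumor gave 1 (run 1) or 14 (run 2), and leaving out a Lyve1Cre Csf1r fl/fl tumor gave 26 (run 1) or 3 (run 2). Of the block's 29 genes, 19 were among the 58. List genes called were 0, then 12 with the block, 18 with no filter and 0 to 7 on leaving out a tumor. The interaction count of 6 was 4 with DESeq2, 79 with no filter and 0 with no replicate block. Leaving out a control tumor gave 9 (run 1) or 0 (run 2), and leaving out a Lyve1Cre Csf1r fl/fl tumor gave 136 (run 1) or 42 (run 2). The cause was not tested. The log2 ratio of shares stayed positive, from 0.09 to 0.68 on leaving out a tumor. Of 140 alternative values for levels 14 moved by more than the spread between tumors. They moved on leaving out the 10% deepest members, members with markers of other cell types (871 cells left) or, for Cd40, members with Gzma, S100a8 or S100a9 UMIs. The markers used to leave those cells out were of T, NK, B, plasmacytoid dendritic, and tumor or stromal cells. Neutrophil and macrophage markers were not among them. Without the 10% deepest members the mean level of Socs2 went from 6.07 to 7.29, Cacnb3 from 5.52 to 6.66 and Ccl5 from 59.9 to 70.8.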
